A study of Mus musculus with 12 samples.

Results

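The genes described here are 34 genes of mitosis, chosen by name, whose products drive cells into mitosis, build the spindle, hold and check the chromosomes, or divide the cell. All 34 were found in the deposited table of 29462 genes, each on 1 row, and all 34 passed the filter for testing. They were measured by RNA sequencing in primary aortic smooth muscle cells of the mouse. There were 6 libraries from C57BL/6J mice, which are wild type (WT), and 6 from mice with a global deletion of cystathionine gamma-lyase (KO), the enzyme called CSE that is encoded by Cth and makes hydrogen sulfide. Cells of both genotypes were kept in medium with serum and received angiotensin II, a vasoconstrictor peptide, at 1 uM for 24 h, and the 1 comparison is of the genotypes under that peptide. Libraries are written WT1 to WT6 and KO1 to KO6 by replicate number. No untreated cells were analysed here. The labels give neither the age nor the sex of the mice nor whether each library had its own culture or mouse, and p-values therefore measure a spread among libraries that may be technical. Levels are FPKM, fragment counts scaled to gene length and library total, and differences are KO minus WT on the log2(FPKM + 1) scale unless a fold is named, which is a ratio of mean FPKM. Adjusted p-values are from limma over all 11831 genes tested, and a gene was called at an adjusted p of at most 0.05.

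Mitosis is set off by the kinase Cdk1 bound to a cyclin, is held at metaphase by the spindle checkpoint until every kinetochore is attached, and ends when the anaphase-promoting complex marks cyclin B and securin for destruction. Transcripts of these genes build up after DNA replication and are scarce in resting cells. The DREAM complex holds them down in resting cells and after p53 is activated, and B-Myb and FoxM1 switch them on in dividing cells. Smooth muscle cells of a healthy artery rarely divide, whereas the same cells in culture with serum do. The levels in bulk RNA therefore stand for dividing cells as a class, and a smaller number of such cells cannot be told apart from less RNA in each.

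Some facts of the libraries bear on every value below. The targeted gene Cth reached at most 0.08 FPKM in any WT library and 0.02 in any KO library, so its level does not check the genotype labels. KO5 and KO6 stood apart from the other KO libraries: limma's weights per library were 0.0772 and 0.0548 for them and 0.938 to 2.43 for the other 10. They were set apart with results of these data known, so their values are set beside the others with no test between them, and the members' results are also given without them. Deposited values summed to between 255538 FPKM in KO6 and 281432 in WT6, and the depth in reads is unknown. Of 10 smooth muscle markers only Acta2 and Smtn reached 1 FPKM in at least 6 libraries, and Myh11, the smooth muscle myosin, was at most at 0.03 FPKM in any library. Endothelial markers summed to at most 1.62 FPKM in any library. The 8 macrophage markers summed to 39.13 to 47.04 FPKM in WT and 41.24 to 57.2 in KO. Most of that was Cd14, and only Cd14, Cd68 and Csf1r reached 1 FPKM in at least 6 libraries. The leukocyte marker Ptprc, of the same list, was at most at 0.04. Cd68 was at 1.27 to 2.03 FPKM in WT and 5 to 10.96 in KO. Csf1r was at 0.58 to 0.83 in WT and 2.45 to 3.37 in KO. The 7 mesothelial markers summed to 82.4 to 93.35 FPKM in WT and 48.18 to 73.77 in KO, mostly from Krt19. Krt19 and Msln were below every WT library in all KO libraries. Wt1, Upk3b and Gpm6a went the other way, above every WT library (Wt1 at most 0.14 in WT and 1.27 to 1.71 in KO). Upk1b was above every WT library in all KO libraries but KO6. Lrrn4 was at most at 0.18 FPKM. The 6 epithelial markers summed to 63.6 to 67.87 FPKM in WT, nearly all from Cdh1, and to at most 1.77 in KO, and the part of this in the comparison was not tested.

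The mitosis genes as a group were lower in KO1 to KO4 than in most WT libraries and higher than in any WT library in KO5 and KO6. The FPKM of the 34 genes summed to 443.85 to 607.02 in the WT libraries (531 ± 56.7, mean ± SD, n = 6). The sums were 446.73, 437.2, 404.81 and 432.26 in KO1 to KO4, then 899.5 in KO5 and 998.61 in KO6. KO5 and KO6 were above every WT library and KO2 to KO4 were below every WT library, with KO1 just above the lowest, WT6. The dot plot of all members by library shows this gene by gene.

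**Figure D1:**
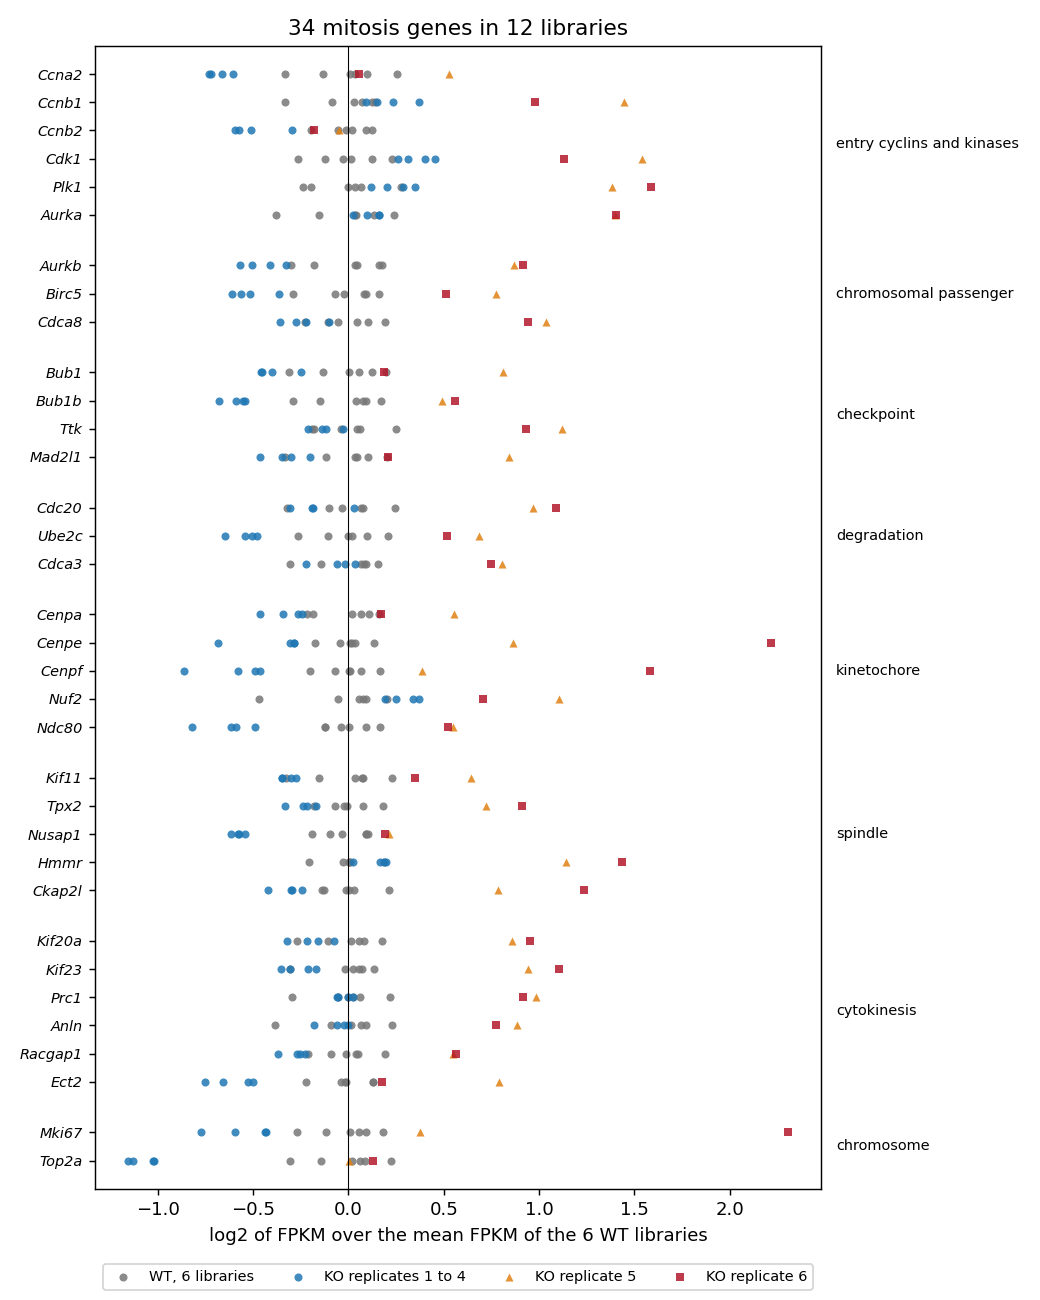
Level of each of the 34 mitosis genes in each of the 12 libraries, as the log2 of its FPKM over the mean FPKM of the 6 WT libraries (x axis), with genes on the y axis grouped by role. Grey points are WT, blue points KO1 to KO4, triangles KO5 and squares KO6. KO5 and KO6 lie to the right of the blue points in all 34 genes.

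With all 12 libraries, few members were called. Of 34 tested, 4 were higher in KO (Cdk1, Ccnb1, Plk1 and Nuf2), 2 were lower (Ccnb2 and Top2a) and 28 did not pass, while 63.5% of all genes tested were called, 32.6% higher and 30.9% lower. The median difference was 0.10 over the 34 genes and 0.01 over all genes tested. Without KO5 and KO6, the same 4 were higher, 23 were lower and 7 did not pass, and here 77.1% of all genes tested were called, 39.9% higher and 37.1% lower. The median difference of the members was then -0.28, against 0.01 for all genes. KO1 to KO4 were all below every WT library in 16 members, against 31.1% of genes tested. They were all above every WT library in 1 member, against 34.9%. The difference turned from above to below 0 in 14 members when the 2 libraries were left out, and none of the 6 members called with all libraries lost its call. In the fit without KO5 and KO6 the 23 falls remained under median-ratio and quantile scaling, and 22 of them under TPM scaling. Of the 4 rises, Ccnb1 lost its call under median-ratio scaling, and Ccnb1 and Plk1 under quantile normalization.

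**Figure D2:**
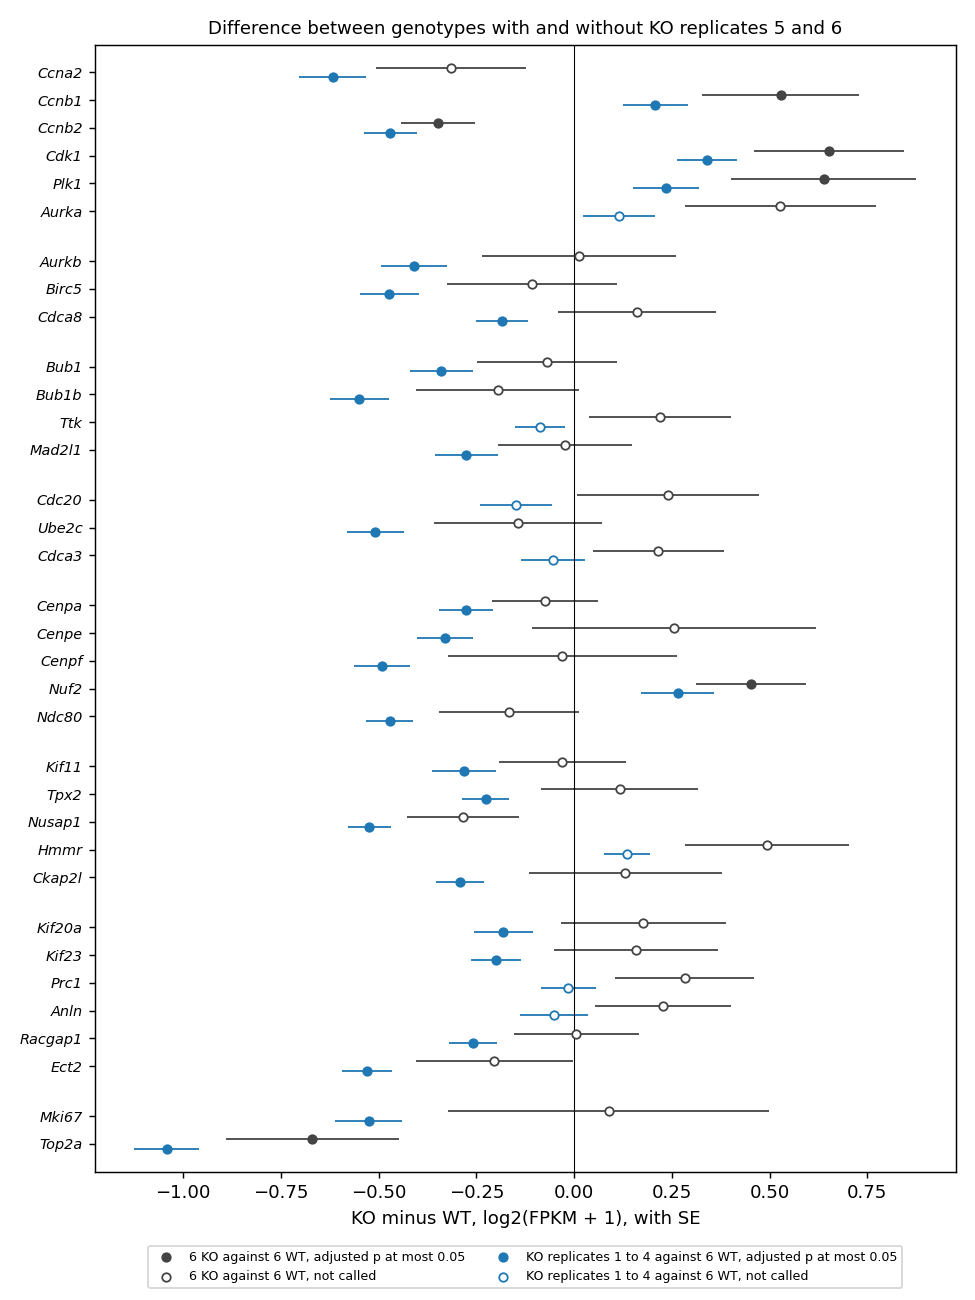
Difference between genotypes for each member, KO minus WT in log2(FPKM + 1) with its SE (x axis), genes on the y axis in the same order of roles. Black marks are the fit of all 12 libraries and blue marks the fit without KO5 and KO6, filled where the adjusted p is at most 0.05. There are 6 filled black marks and 27 filled blue marks, and the blue mark lies left of the black mark in all 34 genes.

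Of the 6 cyclins and kinases of mitotic entry, 3 were called higher and 1 lower with all libraries. That is near the share called over all genes tested, 63.5%. Cdk1, the kinase at the centre of mitotic entry, was at 9.93 to 13.94 FPKM in WT with a median of 11.9, and at 16.32, 15.72, 14.26, 14.82, 34.67 and 26.1 in KO1 to KO6. All 6 KO libraries were above all 6 WT libraries, which was so in 23.8% of all genes tested, and Cdk1 was the only member of which it held. Its mean rose 1.71-fold, from 11.9 ± 1.43 to 20.3 ± 8.29 FPKM (difference 0.65 ± 0.19 SE, limma adjusted p = 0.00949), and 1.28-fold without KO5 and KO6 (adjusted p = 0.00142).

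Ccnb1 and Ccnb2 encode the B cyclins that activate Cdk1, and they moved in opposite directions. Ccnb1 was at 12.19 to 16.9 FPKM in WT, with a median of 15.9, and at 19.83, 18.06, 16.34, 16.99, 41.74 and 30.17 in KO1 to KO6, so that only KO3 lay within the WT range. It rose 1.56-fold (difference 0.53 ± 0.20 SE, limma adjusted p = 0.0337), and 1.16-fold without KO5 and KO6 together (difference 0.21, adjusted p = 0.0365). The call with all libraries was lost without WT3, WT5 or WT6 (adjusted p = 0.0509, 0.0596 and 0.0739) and without KO6 (0.0718). Ccnb2 was at 24.85 to 31.1 FPKM in WT with a median of 28.6, and at 23.19, 20.03, 19.12, 18.9, 27.58 and 25.14 in KO. KO1 to KO4 were below every WT library, and KO5 and KO6 were within the WT range. Ccnb2 fell 1.28-fold, from 28.5 ± 2.24 to 22.3 ± 3.57 FPKM (difference -0.35 ± 0.09 SE, adjusted p = 0.00577), and 1.4-fold without KO5 and KO6. The ratio of Ccnb1 to Ccnb2 FPKM within a library was 0.444 to 0.58 in WT and 0.855 to 1.51 in KO. These ranges do not overlap and hold KO5 and KO6 as well; the ratio was picked after its values were seen, so no test is given.

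Plk1, Aurka and Ccna2 complete this group. Plk1, the polo kinase that promotes entry and spindle assembly, was at 14.7 to 20.98 FPKM in WT with a median of 17.6, and at 21.19, 22.07, 18.82, 19.94, 45.29 and 52.1 in KO. The KO libraries were above WT except KO3 and KO4, which overlap the highest WT library. It rose 1.72-fold (difference 0.64 ± 0.24 SE, limma adjusted p = 0.0311), and 1.18-fold without KO5 and KO6 together (difference 0.24, adjusted p = 0.0224). The call with all libraries was lost without WT5 or WT6 (adjusted p = 0.0602 and 0.0626) and without KO5 or KO6 (0.0669 and 0.0533). Aurka, the centrosomal Aurora kinase, had a WT mean of 14.2 ± 2.09 FPKM and ranged from 14.47 to 15.92 in KO1 to KO4, with 37.52 and 37.59 in KO5 and KO6. It was not called in either fit (limma adjusted p = 0.0743 with all libraries) but was called higher without KO3 alone (0.0435). Ccna2, cyclin A2, which acts in S phase and at mitotic entry, was at 12.64 to 19 FPKM in WT and at 9.58 to 10.46 in KO1 to KO4, below every WT library. KO5 and KO6 held 22.95 and 16.53, and the gene was not called with all libraries (limma adjusted p = 0.168). It was 1.6-fold lower without both (adjusted p = 2.82e-05), and was also called without KO5 alone (0.00791) and with library weights (5.09e-06). Ccna2 shares exon sequence with Exosc9 on the opposite strand (mean 5.16 FPKM).

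**Figure D3:**
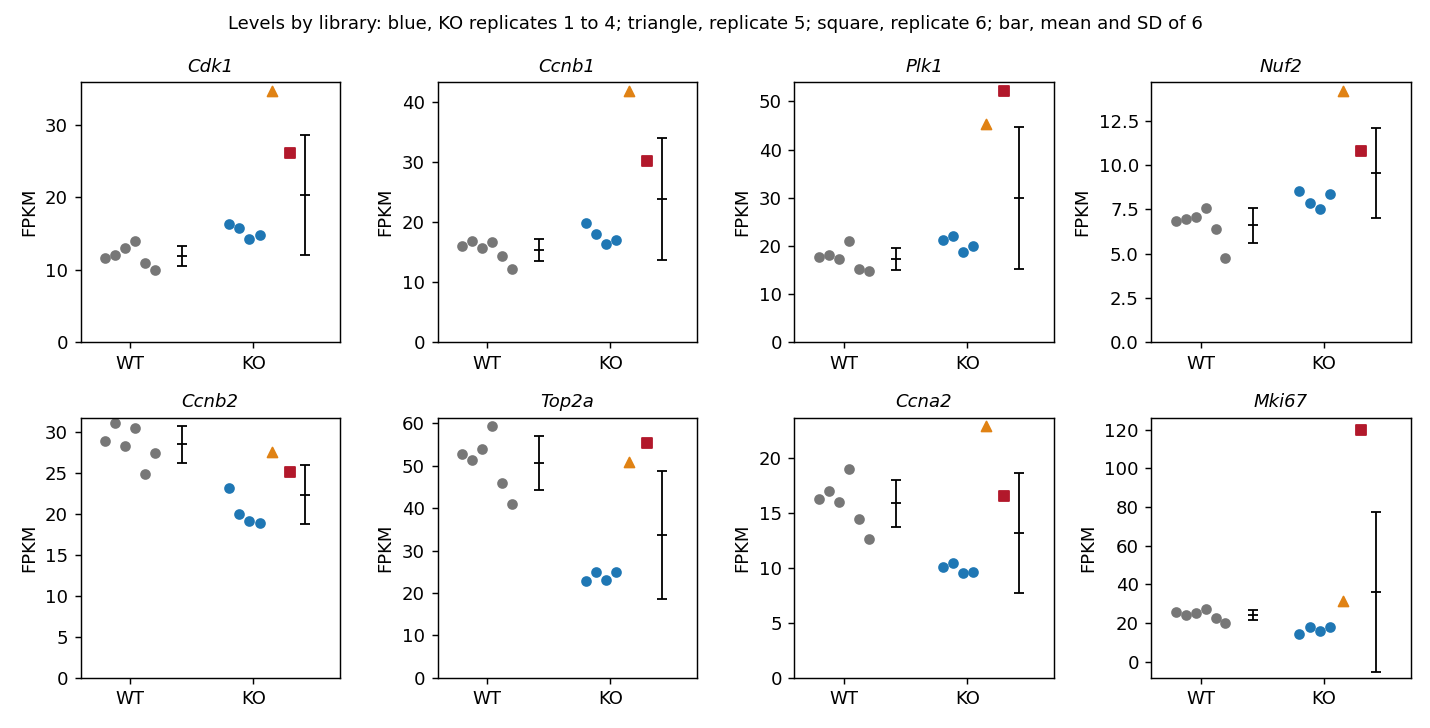
FPKM (y axis) of the 6 members called with all libraries and of Ccna2 and Mki67, in each WT library (grey) and each KO library (blue circles KO1 to KO4, triangle KO5, square KO6), with the mean and SD of 6 as a bar. In Cdk1 every KO library is above every WT library, and in Ccnb2, Top2a, Ccna2 and Mki67 the blue circles are below all WT points.

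Top2a and Mki67 act on mitotic chromosomes and are common marks of dividing cells; both were below every WT library in KO1 to KO4. Top2a, topoisomerase II alpha, which untangles sister chromatids, was at 41.02 to 59.29 FPKM in WT with a median of 52.1, the highest WT level among the members. It was at 22.79, 24.98, 23.15 and 24.99 in KO1 to KO4 and at 50.8 and 55.42 in KO5 and KO6, which lie within the WT range. Top2a fell 1.51-fold with all libraries (difference -0.67 ± 0.22 SE, limma adjusted p = 0.0172; exact permutation test with adjustment, adjusted p = 0.0631) and 2.11-fold without KO5 and KO6 (adjusted p = 1.77e-07). The ratio of Cdk1 to Top2a within a library was 0.221 to 0.242 in WT and 0.471 to 0.716 in KO, again picked after its values were seen. Mki67, the chromosome-coating protein Ki-67, was at 20.13 to 27.48 FPKM in WT with a median of 24.8. In KO it was at 14.18, 17.93, 16.04, 18, 31.46 and 119.95, and the last value is that of KO6. Its call depends on those libraries: the difference was 0.09 ± 0.41 SE with all (adjusted p = 0.863) and -0.53 without KO5 and KO6 (limma adjusted p = 0.000111).

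The 3 members of the chromosomal passenger complex, which corrects faulty attachments and guides cytokinesis, were not called with all libraries and were lower without KO5 and KO6. Over all genes tested, 63.5% were called with all libraries and 37.1% were lower without those 2. Incenp, a further subunit that is not a member, had differences above 0 in both fits. Neither was called (0.68 and 0.19, limma adjusted p = 0.0574 and 0.0658). Incenp was at 11.77 to 17.28 FPKM in WT, 15.9 to 18.8 in KO1 to KO4, and 39.4 and 63.95 in KO5 and KO6. Aurkb, the kinase of the complex, was at 11.84 to 16.5 FPKM in WT with a median of 15. It was at 9.86 to 11.63 in KO1 to KO4 and at 26.69 and 27.52 in KO5 and KO6. Birc5, survivin, was at 17.6 ± 1.89 FPKM in WT, 11.55 to 13.73 in KO1 to KO4, and 30.17 and 25.16 in KO5 and KO6. For Aurkb and Birc5, KO1 to KO4 were below all WT libraries and KO5 and KO6 above them. Cdca8, borealin, at 4.27 ± 0.445 FPKM in WT, overlapped WT in KO1 to KO4 (3.33 to 3.98) and shares exon sequence with 9930104L06Rik on the opposite strand (mean 2.15 FPKM). Without KO5 and KO6, Aurkb fell 1.37-fold, Birc5 1.42-fold and Cdca8 1.18-fold (limma adjusted p = 0.00079, 0.000103 and 0.0224).

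Of the 4 checkpoint genes among the members, 3 were lower without KO5 and KO6, against 37.1% of all genes tested. Further checkpoint genes outside the members differed in that fit. Bub3, Mad1l1, Spdl1 and Zw10 were higher (differences 0.30, 0.39, 0.35 and 0.17, limma adjusted p = 8.93e-05, 0.000544, 0.000842 and 0.0294). Zwilch was lower (-0.32, limma adjusted p = 0.00212) and Kntc1 was not called. With all libraries 0 of 4 were called by limma (0 at an unadjusted p of 0.05), against 63.5% of all genes tested. Bub1b, which encodes the BubR1 inhibitor of anaphase, was at 17.03 to 23.5 FPKM in WT and at 13.03 to 14.32 in KO1 to KO4, with 29.25 and 30.69 in KO5 and KO6. It fell 1.5-fold without the last 2 (limma adjusted p = 2.97e-05). Bub1, its partner kinase at the kinetochore, fell 1.31-fold and Mad2l1, which binds and blocks Cdc20, 1.25-fold (adjusted p = 0.00199 and 0.00769). Ttk, the Mps1 kinase that starts checkpoint signalling, was the lowest member in WT, at 2.94 ± 0.344 FPKM. It was at 2.54 to 2.89 in KO1 to KO4, overlapping the WT range of 2.58 to 3.5, and was not called in either fit. In KO6 Bub1 was at 10.92 FPKM, just below its WT maximum of 10.97, and Mad2l1 at 7.98, just above its maximum of 7.96, while KO5 held 16.81 and 12.4.

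The genes of protein destruction at anaphase differed among themselves. Ube2c, the E2 enzyme of the anaphase-promoting complex, was at 22.4 ± 2.49 FPKM in WT and at 14.28 to 16.07 in KO1 to KO4, below every WT library, and fell 1.46-fold without KO5 and KO6 (limma adjusted p = 4.15e-05). Cdc20, the activator of that complex, was at 27.64 to 40.89 FPKM in WT with a median of 34.9, at 27.87 to 35.17 in KO1 to KO4, and at 67.52 and 73.48 in KO5 and KO6. Cdca3, known for triggering mitotic entry through destruction of the kinase Wee1, was at 19 ± 2.23 FPKM in WT and 16.27 to 19.48 in KO1 to KO4. Cdc20 and Cdca3 overlapped WT in those libraries and were called in neither fit. Cdc20 shares exon sequence with Elovl1 on the opposite strand, which had a mean of 19.7 FPKM, and the sources used here do not say whether reads were counted by strand.

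Among the 5 kinetochore genes 1 was higher and 4 were lower without KO5 and KO6, against 39.9% and 37.1% of all genes tested. Nuf2 and Ndc80 encode partners in the complex that holds the microtubule, and they went opposite ways. Nuf2 was at 4.77 to 7.6 FPKM in WT with a median of 6.92, and at 8.54, 7.86, 7.54, 8.36, 14.21 and 10.79 in KO, so that only KO3 overlapped WT. It rose 1.45-fold (difference 0.45 ± 0.14 SE, limma adjusted p = 0.0123), and 1.22-fold without KO5 and KO6 (adjusted p = 0.0203). Ndc80 was at 3.57 to 4.36 FPKM in WT and at 2.54, 2.77, 2.2 and 2.59 in KO1 to KO4, which do not overlap. It fell 1.54-fold without KO5 and KO6 (limma adjusted p = 1.3e-05), which held 5.69 and 5.58 FPKM.

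Cenpa, Cenpe and Cenpf are the other kinetochore genes. Cenpa, the histone H3 variant that marks centromeres, was at 6.57 ± 0.701 FPKM in WT and 4.76 to 5.54 in KO1 to KO4, and fell 1.25-fold without KO5 and KO6 (limma adjusted p = 0.0031). Cenpe, a kinetochore motor, was at 6.22 to 7.71 FPKM in WT, at 4.38, 5.69, 5.77 and 5.76 in KO1 to KO4, at 12.78 in KO5 and at 32.63 in KO6. Cenpf, a large kinetochore and nuclear matrix protein, was at 5.18 to 6.7 FPKM in WT, at 3.28 to 4.33 in KO1 to KO4, at 7.8 in KO5 and at 17.86 in KO6. In all 3, KO1 to KO4 were below every WT library, which was so in 31.1% of all genes tested. Cenpe and Cenpf share with Mki67 a value in KO6 that is more than 2 times that of KO5 (2.55-, 2.29- and 3.81-fold).

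Spindle genes were lower without KO5 and KO6 in 4 of 5 cases, against 37.1% of all genes tested. Nusap1, which bundles spindle microtubules, was at 11.48 to 14.1 FPKM in WT with a median of 13.4, at 8.8, 8.57, 8.79 and 9 in KO1 to KO4, and at 15.22 and 14.97 in KO5 and KO6. It fell 1.49-fold without the last 2 (limma adjusted p = 2.21e-06), and it shares exon sequence with Oip5 on the opposite strand (mean 5.37 FPKM). Kif11, the motor that pushes spindle poles apart, fell 1.25-fold, Tpx2, the activator of Aurora A, 1.18-fold, and Ckap2l, a spindle protein, 1.24-fold (adjusted p = 0.00697, 0.00382 and 0.000795). Hmmr, a hyaluronan receptor that also acts at spindle poles, was at 9.99 ± 0.865 FPKM in WT, 10.18 to 11.48 in KO1 to KO4 and 22.02 and 27.02 in KO5 and KO6. It just missed the threshold in both fits (adjusted p = 0.0546 and 0.0536) with a difference above 0. With all libraries it was called by the exact permutation test (adjusted p = 0.0256). By limma it was called when any 1 of KO1 to KO4 was left out (adjusted p = 0.0284 to 0.045).

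Of the 6 cytokinesis genes 4 were lower without KO5 and KO6, against 37.1% of all genes tested. With all libraries 0 of 6 were called by limma (0 at an unadjusted p of 0.05), against 63.5% of all genes tested. Kif20a, the motor that brings the passenger complex to the midzone, was the member with the second highest mean in WT, at 37.4 ± 3.96 FPKM, and was at 29.9 to 35.47 in KO1 to KO4 and 67.73 and 72.27 in KO5 and KO6. Without the last 2 it was lower by 1.14-fold (limma adjusted p = 0.0446); it shares exon sequence with Cdc23 on the opposite strand (mean 7.01 FPKM). Ect2, the exchange factor that switches on RhoA at the cleavage furrow, was at 7.61 to 9.68 FPKM in WT and at 6.16, 6.27, 5.26 and 5.63 in KO1 to KO4, which do not overlap. Ect2 fell 1.52-fold without KO5 and KO6 (limma adjusted p = 9.26e-06), and Kif23 and Racgap1, the partners in the centralspindlin complex, fell 1.2- and 1.21-fold (0.013 and 0.00221). Prc1, the midzone bundler, and Anln, the furrow scaffold anillin, were called in neither fit, with differences of -0.01 and -0.05 without KO5 and KO6. In KO5 they were at 16.05 and 20.28 FPKM, above the WT maxima of 9.44 and 12.87.

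In KO5 the members stood above KO1 to KO4 by a similar factor. KO5 was above all of KO1 to KO4 in 34 of 34 members, which was so in 38.7% of genes tested, and KO6 in 34 of 34, against 35.6%. Over the mean of KO1 to KO4, KO5 was 1.36-fold (Ccnb2) to 2.63-fold (Ect2) higher, with a median of 2.16-fold over the members and 0.985-fold over all genes. The SD of the log2 of this fold was 0.195 over the members and 0.612 over all genes. A fold of at least 1.5 was reached by 33 of 34 members in KO5 and by 29 in KO6, against 10.6% and 10.7% of genes above 0 in all libraries. Both libraries were above all of the other 10 in 30 members, against 16.4% of genes tested; the 4 exceptions were Ccna2, Ccnb2, Bub1 and Top2a. Marker lists moved with these libraries too: the smooth muscle list summed to 155.02 and 168.78 FPKM in KO5 and KO6, against 86.42 to 96.04 in KO1 to KO4 and 123.86 to 152.62 in WT. The 9 fibroblast markers, 7 of them at 1 FPKM or more in 6 libraries, summed to 484.01 and 672.09 in KO5 and KO6. Their sum was 1126.45 to 1197.37 in KO1 to KO4 and 731.44 to 770.28 in WT. Acta2 made up most of the smooth muscle sum and Col1a1 most of the fibroblast sum. In KO5 and KO6, Dcn and Ly6a were below every WT library. Pdgfra, Dpt, Col3a1 and Cd34 were above every WT library there (Col3a1 19.57 and 25.31 FPKM, at most 0.71 in WT). Col1a1 was below all WT libraries in KO5 and above them in KO6. The part of these shifts in the mitosis genes was not tested.

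In KO6 the factor differed with the length of the gene. Its fold over KO1 to KO4 ran from 1.24 (Ccnb2) to 7.25 (Mki67), and the 3 highest, Mki67, Cenpe and Cenpf, are the members with the longest coding sequences, 9531, 7413 and 8991 bases in GENCODE M21. KO6 was above KO5 in 15 of 34 members, against 43.7% of genes tested. Over KO5, KO6 was lower in all 7 members with under 1000 coding bases, with a median ratio of 0.834, and higher in all 3 with 6000 or more, with a median of 2.55. Among all protein-coding genes tested the same ratio had a median of 0.848 under 1000 coding bases (3315 genes), 0.963 from there up to 2000, 1.11 up to 4000, 1.31 up to 6000 and 1.48 above that (267 genes). Mki67 had the highest ratio of those 267 genes. The next longest member, Top2a with 4584 bases, had a ratio of 1.09. Other long mitosis genes differed less: 6 of them with 6000 or more coding bases had ratios of 1.04 (Knl1) to 1.86 (Cit). Whether the excess of these 3 genes in KO6 comes with its length pattern was not tested. Without Mki67, Cenpe and Cenpf the members summed to 828.17 FPKM in KO6 and 847.46 in KO5, and to 379 to 424.89 in KO1 to KO4.

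**Figure D4:**
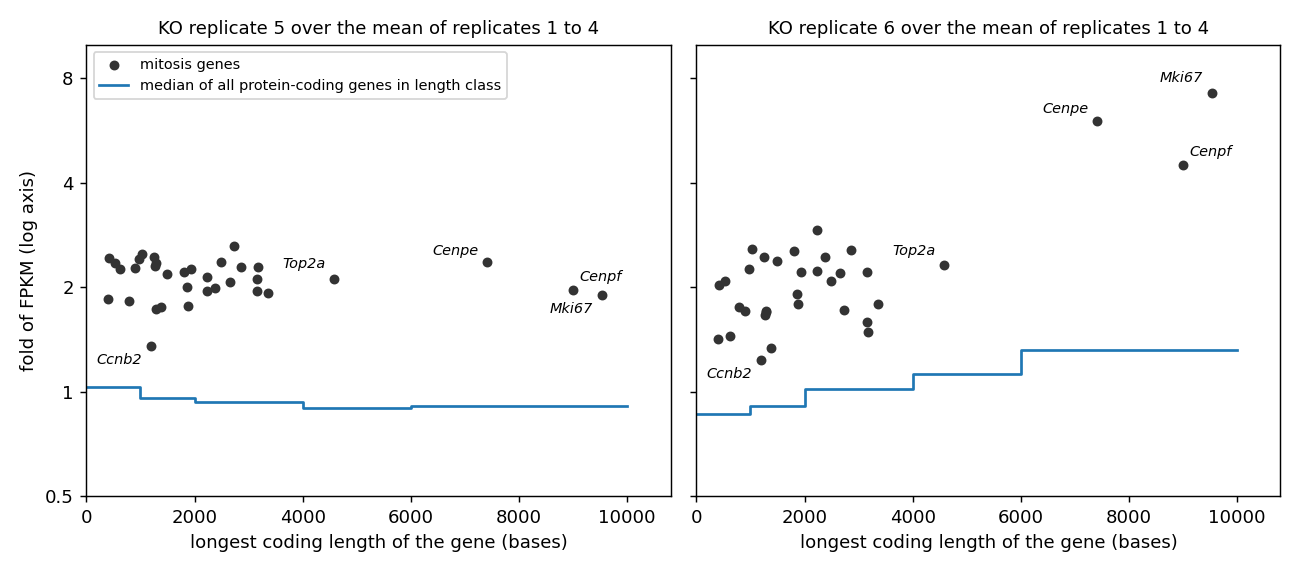
Fold of FPKM over the mean of KO1 to KO4 (log axis) against the longest coding length of each member in bases, for KO5 (left) and KO6 (right). Points are the 34 members and the blue steps are medians over all protein-coding genes in the length class. In KO5 the points lie between 1.36 and 2.63, and in KO6 Mki67, Cenpe and Cenpf lie at 7.25, 6.04 and 4.5.

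The WT libraries also had a common order in these genes. WT4 was the highest WT library or tied for it (with WT3 in Ect2) in 32 of 34 members, all but Ccnb1 and Ccnb2, against 25.2% of genes tested. WT6 was the lowest or tied for it in 33 of 34, all but Ccnb2, against 23.6%. The coefficient of variation of a member was 6.98% to 14.8% over the 6 WT libraries and 2% to 12.6% over KO1 to KO4.

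The starts of these genes share sequence that the choice by name did not use. DREAM and B-Myb complexes bind the cell cycle genes homology region (CHR), searched here as TTTGAA or TTCGAA, and NF-Y binds the CCAAT box, searched as CCAAT. E2F factors, which drive S-phase genes, were searched as TTCCCGC, each on both strands in RefSeq windows of GRCm38.p6 from 250 bases before to 50 after the start. None of the 3 motifs contains another. A window was held for 30 members, not for Aurkb, Ccna2, Kif20a and Tpx2. CHR letters were in 24 of 30 member windows (80%) and in 19.2% of all 32851 windows, and CCAAT in 24 of 30 (80%) against 37.4%. Both stood in 22 of 30 (73.3%) against 7.52%, and the E2F letters in 0 of 30 against 4.6%. Of 36 S-phase genes with a window, 19.4% held CHR letters, 63.9% CCAAT and 47.2% the E2F letters. Of 73 other mitosis genes with a window, 60.3% held CHR letters, 65.8% CCAAT, 43.8% both of these and 17.8% the E2F letters. The lack of E2F letters is thus not shared by the other mitosis genes. Of 17 member windows with 2 or more CCAAT, 8 had a pair that started 31 to 35 bases apart. This was so in 11.5% of all windows with 2 or more and in 22.2% of those of other mitosis genes. The range was chosen after the positions were seen, and windows with more CCAAT hold more pairs. The contrast is therefore no test of a fixed distance. CHR letters lay within 50 bases of the start in 23 members, in 14 only after or across it. A match is a description of letters, not evidence of binding.

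**Figure D5:**
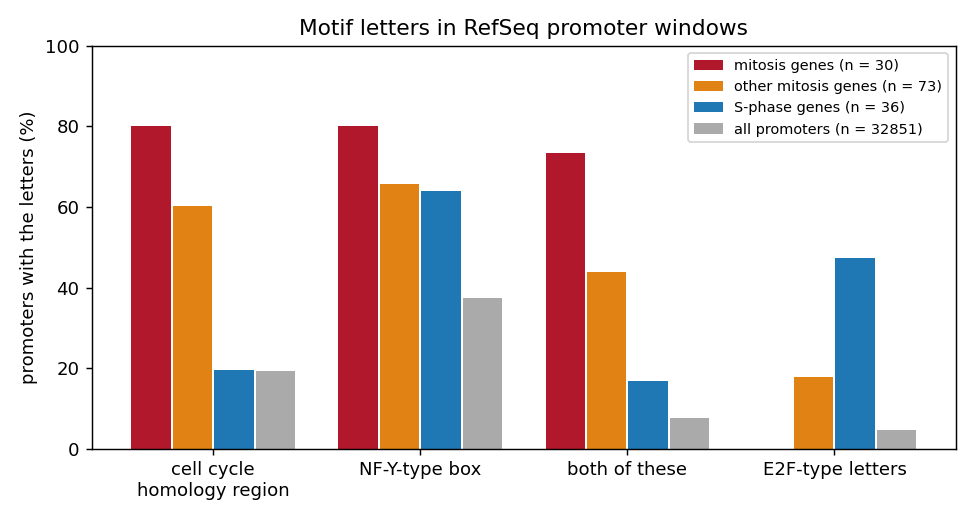
Share of RefSeq promoter windows (y axis, percent) that hold the letters of each motif on either strand, for the mitosis genes, the other mitosis genes, S-phase genes and all windows, with the number of windows in the legend. The mitosis genes are at 80% for the cell cycle genes homology region and at 0 for the E2F-type letters.

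The 6 members called with all libraries are shown here, the 4 that rose first, to set their starts side by side. Each line is the 150 bases before the outermost start in RefSeq and GENCODE, 5′ to 3′ on the gene's strand, from RefSeq's table of GRCm38.p6, with CHR and CCAAT letters of either strand in capitals (ATTGG and TTCAAA are the reverse strands). The stretches are chr10:69352939-69353088 (minus strand), chr13:100786571-100786720 (minus strand), chr7:122159285-122159434 (plus strand), chr1:169531465-169531614 (minus strand), chr9:70421555-70421704 (minus strand) and chr11:99024190-99024339 (minus strand).
Cdk1: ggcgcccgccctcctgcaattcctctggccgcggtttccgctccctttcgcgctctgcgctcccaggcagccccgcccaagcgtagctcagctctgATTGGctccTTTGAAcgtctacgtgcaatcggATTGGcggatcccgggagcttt
Ccnb1: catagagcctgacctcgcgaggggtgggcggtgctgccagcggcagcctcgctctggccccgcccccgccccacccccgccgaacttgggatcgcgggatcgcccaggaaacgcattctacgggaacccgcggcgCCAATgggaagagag
Plk1: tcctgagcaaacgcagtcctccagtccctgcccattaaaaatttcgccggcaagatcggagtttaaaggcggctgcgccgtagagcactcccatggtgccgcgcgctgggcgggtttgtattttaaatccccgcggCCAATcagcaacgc
Nuf2: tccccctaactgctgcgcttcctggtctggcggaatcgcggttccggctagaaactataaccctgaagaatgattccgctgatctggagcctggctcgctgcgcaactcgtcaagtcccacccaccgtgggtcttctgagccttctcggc
Ccnb2: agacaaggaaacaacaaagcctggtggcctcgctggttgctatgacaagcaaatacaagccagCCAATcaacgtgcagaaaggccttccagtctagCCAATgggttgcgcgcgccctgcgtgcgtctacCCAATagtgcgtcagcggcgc
Top2a: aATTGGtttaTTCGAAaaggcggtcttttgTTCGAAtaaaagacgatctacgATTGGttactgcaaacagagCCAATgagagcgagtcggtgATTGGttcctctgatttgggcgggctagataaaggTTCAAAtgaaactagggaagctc
Both groups hold CCAAT letters, with 3 in the stretch of Ccnb2, 4 in that of Top2a and 2 in that of Cdk1. Top2a has 3 CHR matches here and Cdk1 has 1. Nuf2, which rose, has neither motif in its window, and in the whole windows CHR letters were found for Cdk1, Plk1, Ccnb2 and Top2a and not for Ccnb1 and Nuf2.

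Other genes of mitosis, 88 listed and all tested, also held calls in both directions. With all libraries 22 were higher and 8 lower, against 32.6% and 30.9% of all genes tested. Without KO5 and KO6, 21 were higher and 40 lower, against 39.9% and 37.1% of all genes tested. Their medians were 0.14 and -0.13, and KO5 was a median of 1.99-fold above KO1 to KO4. Gtse1, which restrains p53 in G2, was at 12.1 to 15.5 FPKM in WT and at 38.3 to 42.9 in KO1 to KO4, with 62.1 and 82.7 in KO5 and KO6, and rose 3.63-fold (limma adjusted p = 1.02e-06). Pttg1, securin, which holds back the protease that parts sister chromatids, rose 2.94-fold to 20.6 ± 6.88 FPKM, and Cenpm, of the inner kinetochore, 2.03-fold to 10 ± 0.828 (adjusted p = 4.64e-06 and 7.08e-07). In these 3 all KO libraries were above all WT libraries, which was so in 23.8% of all genes tested. The 14 core subunits of the anaphase-promoting complex are made throughout the cell cycle. With all libraries 5 of these subunits were higher and 3 lower, against 32.6% and 30.9% of all genes tested. KO5 was a median of 1.01-fold of KO1 to KO4 in them. Anapc16 rose 1.86-fold to 7.86 ± 0.652 FPKM, Anapc7 rose 1.38-fold and Cdc23 fell 1.32-fold.

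S-phase genes, 48 listed and all tested, followed the members in KO5 and KO6. KO5 was above all of KO1 to KO4 in 48 of 48, against 38.7% of genes tested, with a median of 2.11-fold. With all libraries 10 were higher and 0 lower by limma, against 32.6% and 30.9% of all genes tested. At an unadjusted limma p of 0.05 there was 1 lower, and by the exact permutation test 0 lower. Without KO5 and KO6, 8 were higher and 17 lower, against 39.9% and 37.1% of all genes tested. The median difference was then -0.09 in the S-phase genes and -0.28 in the mitosis genes. The difference between the lists was not tested. Ccne1, cyclin E1, which starts S phase, rose 3.38-fold to 8.54 ± 2.59 FPKM, and Rrm1 and Rfc2, of nucleotide supply and clamp loading, 1.92- and 1.74-fold.

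Regulators of these genes, 26 listed and all tested, had 6 higher and 5 lower with all libraries, against 32.6% and 30.9% of all genes. Foxm1, the activator of mitotic genes, was at 11 to 15.7 FPKM in WT, at 9.05 to 10.6 in KO1 to KO4 and at 22 and 28.8 in KO5 and KO6, an order like that of the members. Mybl2, which encodes B-Myb, was at 2.56 to 4.29 in WT, 2.27 to 2.94 in KO1 to KO4, and 9.09 and 11 in KO5 and KO6. Neither was called with all libraries (limma adjusted p = 0.899 and 0.475), and both were lower without KO5 and KO6 (0.00136 and 0.0293). Cdkn1a, the p53 target p21 that inhibits cyclin-dependent kinases, was at 34.9 to 37.7 FPKM in WT and at 65.6 to 75.6 in the KO libraries, KO5 and KO6 included, and rose 1.99-fold (limma adjusted p = 2.12e-09). The higher p21 RNA was found in all 6 KO libraries, in those with low and in those with high mitosis genes. Its part in the levels of the members was not tested. Rbl2, the p130 pocket protein of the DREAM complex, was at 6.95 to 7.96 FPKM in WT, 5.62 to 6.26 in KO1 to KO4, and 3.95 and 3.62 in KO5 and KO6, and fell 1.44-fold (adjusted p = 0.00203). Rbl1, the related p107, fell 1.42-fold, and E2f1 rose 1.43-fold. E2f4, the E2F of DREAM, was not called with all libraries (12.5 ± 0.534 FPKM in WT, 12.7 ± 3.47 in KO). Nfya, a subunit of the factor that binds CCAAT, fell 1.7-fold to 4.85 ± 0.409 FPKM, and E2f2 fell 2.61-fold.

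The authors' deposited table marked 0 of the 34 members as significant and gave 8 a q-value of at most 0.05. The authors' deposited table gives a ratio of WT over KO of 0.59 for Cdk1, 0.64 for Ccnb1, 1.28 for Ccnb2 and 1.51 for Top2a. Ccnb1 and Ccnb2 have processed copies in the genome, and the rows Ccnb1-ps and Ccnb2-ps were at means of 1.24 and 0.632 FPKM, so part of the reads of either gene may have been split.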

How the data were processed

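RNA of 12 libraries was measured by paired-end sequencing of polyadenylated RNA, with strand marked by dUTP, per the labels' protocols. The submitters' processing notes list edgeR, DESeq2, StringTie 1.3.4d, HISAT2 2.0.4 and cutadapt 1.9 as tools and mm9 as build, giving none a role. The authors deposited FPKM to 2 decimals; a value depends on all other genes in its library. The same deposited table holds a ratio of WT over KO, the log2 of that ratio and a q-value beside its p-value, made by the authors with a test not given in the sources used here. Every sample column matched a sample. Libraries were compared in pairs for duplicates, and the closest pair shared values to 0.01 FPKM in 2.35% of tested genes.

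The test took the 11831 genes that reached 1 FPKM in 6 or more libraries. log2(FPKM + 1) was compared by limma (version 3.58.1, R 4.3.3), letting the variance follow the mean level, without covariates and with Benjamini-Hochberg adjustment, two-sided. This scale understates changes of low genes. No counts were at hand, so no count model was used and read depth is unknown. For a symbol on several rows the one of highest mean FPKM was taken. All members passed the filter, so the exact test planned for members below it was not needed. Gene positions and coding lengths are from GENCODE M21 (GRCm38), to which 29384 of 29462 IDs matched; no coordinate of mm9 was used. Alternatives were other pseudocounts, filters, scalings, variance models, weights, an exact permutation test over 924 assignments, the replicate number as a block and leaving out libraries singly. A further set was chosen after seeing the data: the fit without KO replicates 5 and 6 under other scalings. The tests were checked on simulated data with independent libraries, none of them set apart like KO replicates 5 and 6. That check does not speak to the effect of those libraries. The members, the lists and the treatment of KO replicates 5 and 6 were chosen with earlier results of these data known. Named genes are all members, Cth, the 3 called genes with the smallest p of each pathway list, and 7 regulators chosen by name. Markers, overlapping genes, long mitosis genes, Incenp, the further checkpoint genes and pseudogene rows were picked after their values were seen.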

Additional observations from a re-analysis of the deposited data

Results flagged for a closer look

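In 3 members the highest KO library lay far from the other 5, past Dixon's critical value for 6 libraries. The gap between KO replicate 6 and the next library was 0.837 of the range for Mki67, 0.703 for Cenpe and 0.69 for Cenpf. Chance gives such a gap in about 1 in 20 groups, and it was found in 16.6% of all genes tested in the KO group and 5.24% in the WT group. No member had such a gap in WT. The part of coding length in it was not tested.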

How the results depend on the processing

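Leaving out KO replicates 5 and 6 and weighting the libraries changed many calls. Without those 2 libraries the share of all genes tested that was called lower went from 30.9% to 37.1%. The members called lower went from 2 to 23, the other mitosis genes called lower from 8 to 40, and the S-phase genes called lower from 0 to 17. With array weights, which give those libraries little weight, these counts were 23, 43 and 19. Combined with leaving out KO replicates 5 and 6, quantile normalization gave 24, 45 and 20 with 2 members higher, median-ratio scaling 23, 41 and 17, TPM scaling 22, 38 and 17, and a pseudocount of 0.1 23, 40 and 17. Differences that turned below 0 without KO replicates 5 and 6 were Aurkb -0.41, Cdca8 -0.18, Ttk -0.087, Cdc20 -0.15, Cdca3 -0.054, Cenpe -0.33, Tpx2 -0.23, Ckap2l -0.29, Kif20a -0.18, Kif23 -0.20, Prc1 -0.014, Anln -0.051, Racgap1 -0.26, Mki67 -0.53, Foxm1 -0.38 and Mybl2 -0.27. With array weights they were Aurkb -0.44, Cdca8 -0.20, Ttk -0.091, Cdc20 -0.18, Cdca3 -0.081, Cenpe -0.28, Tpx2 -0.23, Ckap2l -0.28, Kif20a -0.20, Kif23 -0.22, Prc1 -0.030, Anln -0.069, Racgap1 -0.27, Mki67 -0.49, Foxm1 -0.38 and Mybl2 -0.29. With quantile normalization Aurkb was at -0.077, Tpx2 at -0.017, Racgap1 at -0.096, Mki67 at -0.022 and Foxm1 at -0.046, with 2 members higher and 2 S-phase genes lower. Racgap1 was at -0.0035 with median-ratio scaling and E2f4 at 0.0057 with TPM scaling. The cause was not tested in any of these.

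When single libraries were left out, 2 to 6 members were higher and 2 to 5 lower, 19 to 26 other mitosis genes higher and 6 to 16 lower, 7 to 11 S-phase genes higher and 0 to 3 lower, and 7121 to 8105 genes were called. Differences ranged from -0.16 to 0.12 for Aurkb, -0.18 to 0.050 for Mad2l1, -0.11 to 0.42 for Cenpe, -0.32 to 0.10 for Cenpf, -0.16 to 0.027 for Kif11, -0.039 to 0.20 for Tpx2, -0.082 to 0.23 for Ckap2l, -0.10 to 0.075 for Racgap1, -0.35 to 0.25 for Mki67, -0.16 to 0.15 for Foxm1 and -0.13 to 0.038 for E2f4. Only 2 members were called higher without a filter, 1 lower by the exact permutation test, and 6 S-phase genes higher with a minimum of 5 FPKM, where fewer genes were tested and 4775 were called. Libraries with the same replicate number did not deviate together (r of -0.27 to -0.058 across genes). Deviations were taken from the mean of each genotype, which in KO includes KO5 and KO6, so this cannot exclude a pairing by number. With the replicate number as a block 2 members were called higher, and Ccnb1 and Plk1 had limma adjusted p-values of 0.0656 and 0.0638. Cdk1, Nuf2 and Ccnb2 kept their calls in every alternative run on them.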
